A study of Rattus norvegicus with 10 samples.

Results

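The 42 genes described here mark the supporting cells of the pancreatic islet: fibroblasts, stellate cells and the pericytes that wrap its capillaries, with the matrix these cells lay down. They were taken by gene symbol from a fixed list, all 42 were found among the 14217 genes that the array's annotation names singly, and each was read from the probeset (a set of short probes against the same transcript) with the highest mean signal over all arrays. The members were sorted by role into 9 interstitial collagens, 3 basement membrane collagens, 4 small leucine-rich proteoglycans, 9 matrix glycoproteins, 4 matrix enzymes and inhibitors, 5 contractile proteins, 2 pericyte markers and 6 further mesenchymal genes.

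Islets came from adult male Wistar rats, 7 weeks old and with no genetic change named, after 10 days on standard chow (8% of calories from fat) or a cafeteria diet (66% of calories from fat). Each diet is represented by 5 arrays (Affymetrix GeneChip Rat Genome 230 2.0) labelled as biological replicates, and values are linear signal units. How the islets were isolated, and so how much stroma stayed attached, is not given in the sources used here. Groups follow the array titles; the diet characteristic of every sample names the opposite diet, and if it were right each direction given here would turn. In bulk tissue, fewer cells of a type and less RNA per cell cannot be told apart.

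Stromal cells of the islet surround the endocrine cells and capillaries with a thin sheath of matrix. Fibrillar collagens give that sheath its strength, type IV collagen forms the sheet under the endothelium, and proteoglycans such as decorin and lumican bind collagen fibrils and set their spacing. Pericytes carry the PDGF receptor beta and contract through smooth muscle actin, while pancreatic stellate cells take on a contractile, collagen-secreting state when activated.

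No single gene passed the test, and the role groups differed in the sign of their values. All 9 interstitial collagens were higher on the cafeteria arrays, by 0.05 to 0.30 on the log2 scale, and all 5 contractile genes were lower, by 0.03 to 0.34. Of the 4 small leucine-rich proteoglycans, 3 were lower. Among all tested probesets, 51.4% were higher and 48.6% lower. Members of a role were read on the same arrays, so their signs are not independent. With limma and Benjamini-Hochberg adjustment over all 18625 probesets, 0 of 39 tested members had an adjusted p under 0.05 (lowest 0.418), as did 0% of all probesets. At an unadjusted p under 0.05, 3 members were higher (Thy1, Mgp and Mfap5) and 1 was lower (Ogn), beside 5.51% of all probesets higher and 4.91% lower (10.4% in either direction). Over all probesets that was 1026 higher and 915 lower, and 580 higher and 1315 lower when each array was centred on its median instead. The groups overlapped for all 42 members; over all probesets, 0.988% lay wholly higher and 1.45% wholly lower on the cafeteria arrays. Fbln1, Cnn1 and Gas1 were too dim for the filter on low signals and were not tested. The median log2 difference of the 39 tested members was 0.10, against −0.004 over the 10300 genes tested with 1 probeset each. The members were chosen with earlier results of these data known, so this comparison is only a description. All 3 untested members were lower, and over all 42 the median was 0.09 and the mean 0.03, with 26 higher and 16 lower. That mean was −0.004 with each array centred on its median, 0.13 when the GAPDH control ratio entered the model, 0.10 without standard replicate 5 and −0.009 without cafeteria replicate 5.

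**Figure D1:**
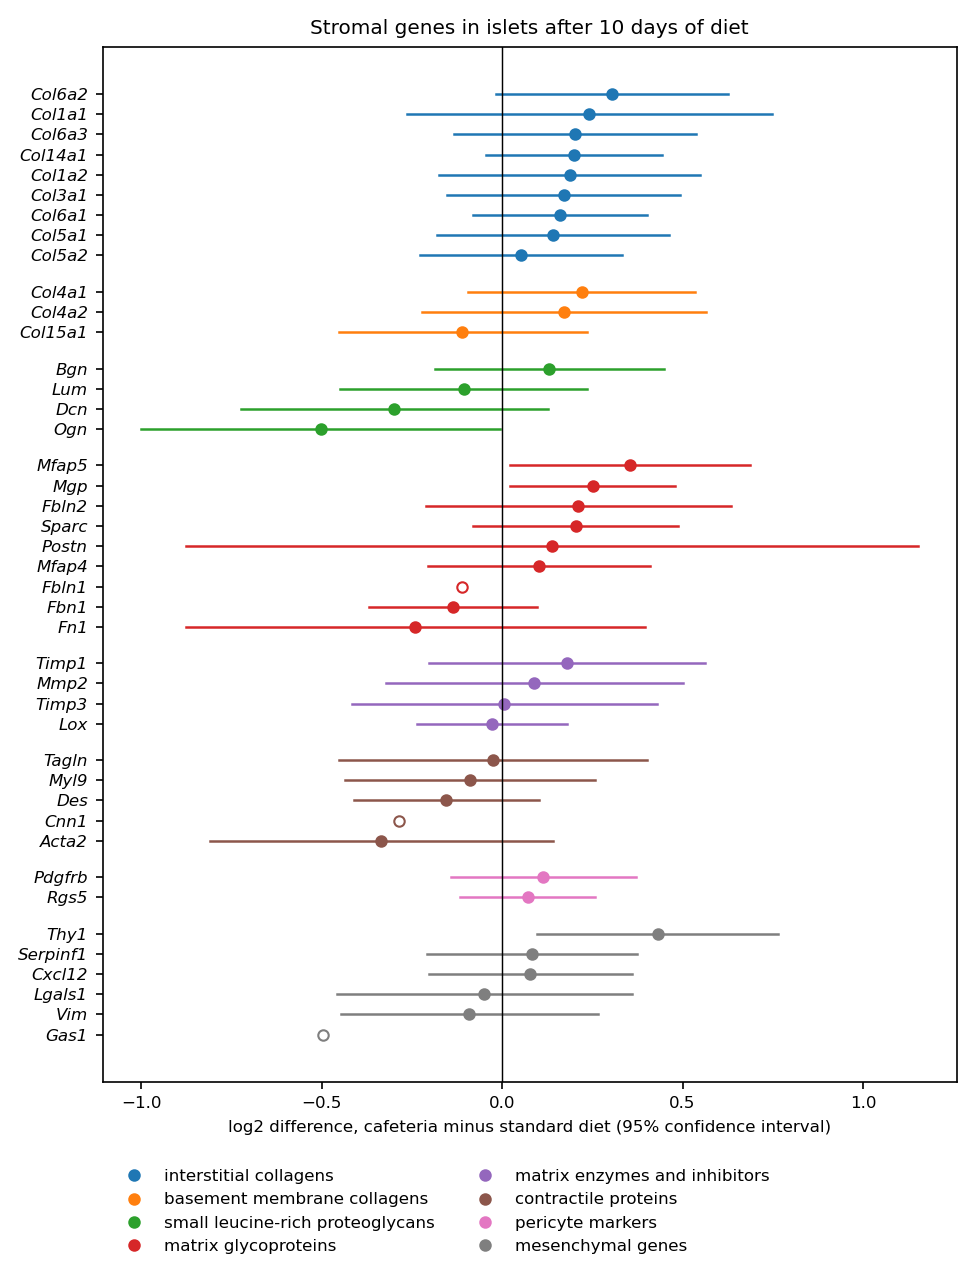
Log2 difference between the diets (horizontal axis, cafeteria minus standard) for each of the 42 genes, coloured by role, with limma's 95% confidence interval; open circles are the 3 genes below the filter, which have no interval. Interstitial collagens lie right of 0 and contractile genes left of it, and most intervals cross 0.

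Stromal signal also varied between arrays of the same diet. Standard replicate 5 was the highest standard array for 25 of 42 members and cafeteria replicate 5 the highest cafeteria array for 19. The mean log2 value over all members was 9.45 on standard replicate 5 and 9.41 on cafeteria replicate 5, against 9.10 to 9.19 on the other standard arrays and 9.12 to 9.31 on the other cafeteria arrays. Both arrays were also highest for the 11 endothelial markers, with a mean log2 value of 10.07 on standard replicate 5 and 10.06 on cafeteria replicate 5 and at most 9.84 elsewhere. Endothelial markers themselves were higher on the cafeteria arrays in 7 of 10 tested members (median log2 difference 0.07), with summed signals of 15036.6 to 18336.0 on the standard and 14211.2 to 17862.3 on the cafeteria arrays. No endothelial marker was at 0. Their part in the stromal differences was not tested.

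Quality and purity measures also differed between arrays. The 3 prime probes of the GAPDH control read more than its 5 prime probes where RNA is degraded, and this ratio averaged 1.16 on the standard and 1.01 on the cafeteria arrays (exact two-sided permutation p = 0.0238, adjusted over 2 ratios p = 0.0476); the p was between 0.0556 and 0.0635 without standard replicate 1, 3, 4 or 5. The beta-actin ratio averaged 2.81 and 2.65 (exact permutation p = 0.405). Immune markers were lower on the cafeteria arrays in 12 of 12 tested members (median −0.59), with summed signals of 6531.8 to 22534.0 on the standard and 6132.9 to 22768.7 on the cafeteria arrays. Acinar markers were lower in 7 of 9 (median −0.21; summed signals 8600.2 to 20472.2 and 3997.5 to 20996.9). Endocrine markers, the check of the tissue label, passed the filter on low signals in 10 of 10 cases; 8 were higher (median 0.20; summed signals 157835.6 to 198858.9 and 188139.6 to 243107.8). Duct markers were higher in 5 of 7 and mesothelial markers in 3 of 3 tested (median 0.14 for each list), and adipocyte markers lower in 2 of 2 (median −0.24). Krt19 (0.14, SE 0.331) is in both the duct and the mesothelial list, so these are not separate readings. The part of these measures in the stromal differences was not tested. No marker of these lists was at 0. Of 9 genes found from a list for stellate cells and their quiescence, only Nes and Plin2 passed that filter, while Gfap, Lrat, Ngfr, Hgf, Pparg, Angpt1 and Fgf7 did not.

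Interstitial collagens had a mean log2 difference of 0.18. Their mean log2 value was 9.41 ± 0.17 (SD, n = 5) on the standard arrays, from 9.20 to 9.67, and 9.59 ± 0.17 (SD, n = 5) on the cafeteria arrays, from 9.45 to 9.88. The standard values reached past 4 of the 5 cafeteria values, so the groups were not separate. The GAPDH ratio itself differed between the diets, so a model that holds both cannot cleanly separate them. With that ratio in the model, the mean difference was 0.37 and all 9 were higher. It was 0.12 with the mean of all probesets of a gene, dim ones included, where Col6a2 was at 0.12, Col1a1 at 0.07, Col5a1 at 0.05 and Col6a3 at 0.01. It was 0.11 without cafeteria replicate 5 and 0.13 without standard replicate 2, with 8 of 9 higher in each case, and 0.18 with 8 of 9 higher when both replicate 5 arrays were left out.

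Type I and type III collagen form the thick fibrils of the capsule and vessel walls. Col1a1, a chain of type I collagen, read 604.3, 486.1, 801.5, 611.0 and 1015.2 on standard replicates 1 to 5 and 645.8, 1119.5, 585.1, 745.4 and 1090.4 on cafeteria replicates 1 to 5. Cafeteria replicates 2 and 5 and standard replicate 5 stood highest, and the other cafeteria arrays lay within the standard range. The difference was 0.24 (SE 0.230; limma adjusted p = 0.712). Col3a1, the chain of type III collagen, read 2900.4, 2505.7, 2913.7, 3318.1 and 4168.0 on the standard and 3233.0, 3786.3, 3149.6, 3097.8 and 4441.9 on the cafeteria arrays. Replicate 5 was highest in both diets for Col3a1, and its difference of 0.17 (SE 0.147; limma adjusted p = 0.685) was smaller than the spread between arrays. Col1a2, the partner chain of Col1a1, differed by 0.19. Col5a1 and Col5a2, chains of the type V collagen that starts fibrils, differed by 0.14 and 0.05, and Col5a2 turned to −0.04 without cafeteria replicate 5 and to −0.02 without standard replicate 2.

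Type VI collagen makes beaded filaments around cells. Col6a2 read 338.6, 267.0, 347.0, 367.3 and 449.6 on the standard and 425.7, 413.6, 448.1, 349.4 and 560.3 on the cafeteria arrays. It had the lowest p of the interstitial collagens, and 4 of 5 cafeteria arrays lay above 4 of 5 standard arrays. The difference was 0.30 (SE 0.146, 95% confidence interval −0.02 to 0.63; limma adjusted p = 0.486). Col6a1 read 911.9, 704.0, 926.4, 698.0 and 794.7 on the standard and 898.6, 974.0, 756.1, 978.9 and 896.2 on the cafeteria arrays, with a difference of 0.16 (SE 0.110). The third chain, Col6a3, differed by 0.20 (SE 0.152) in its brightest probeset and by −0.18 in a second one below the filter. Col14a1, whose product sits on the surface of fibrils, read 549.4, 557.0, 504.0, 480.2 and 679.7 on the standard and 600.2, 690.5, 573.2, 740.7 and 580.0 on the cafeteria arrays (difference 0.20, SE 0.111; limma adjusted p = 0.533). Only standard replicate 5 kept the Col14a1 standard arrays from lying wholly below the cafeteria arrays.

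**Figure D2:**
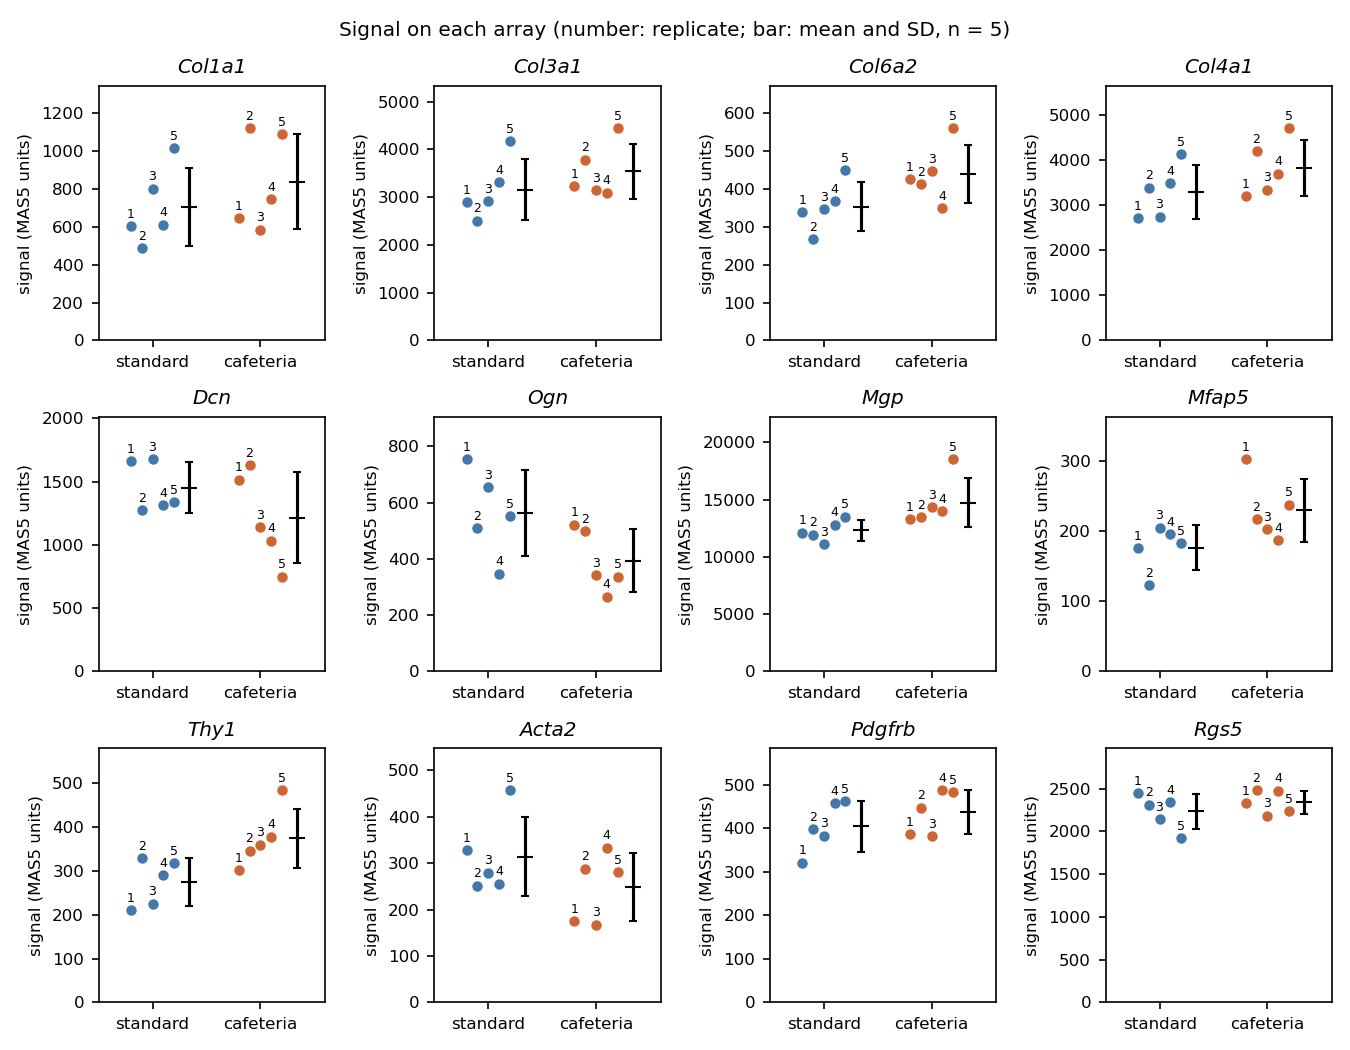
Deposited signal (vertical axes, MAS5 units, starting at 0) of 12 stromal genes on each array, blue for standard and orange for cafeteria diet, with replicate numbers and the mean and SD of 5 arrays. Replicate 5 is highest in both diets for Col3a1 and Col4a1, Ogn is mostly lower and Thy1 mostly higher in the cafeteria group, and every gene's groups overlap.

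Basement membrane collagens were mixed, with 2 of 3 higher and a mean difference of 0.09, which was 0.003 without cafeteria replicate 5 and 0.19 without cafeteria replicate 3. Col4a1 and Col4a2 encode the chains that pair in type IV collagen, the network of vascular basement membranes, and their genes share a promoter region. In RefSeq's GRCr8 assembly they start back to back on chromosome 16, with 76 bases between the starts, on opposite strands. That stretch is shown because both genes are read from it: it holds 1 GC box (GGGCGG on either strand, in capitals), and 78.9% of its bases are G or C.
Col4a1 and Col4a2 shared interval, GRCr8 chr16:84885521-84885596, forward strand: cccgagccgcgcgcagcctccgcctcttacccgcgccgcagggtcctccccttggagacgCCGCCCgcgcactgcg
Of 16845 forward-strand promoters in the table, 6.7% had a reverse-strand start within 250 bases upstream.

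The pair behaved alike from array to array. Col4a1 read 2706.5, 3382.4, 2738.8, 3474.4 and 4124.1 on the standard and 3192.3, 4189.7, 3337.3, 3695.1 and 4693.7 on the cafeteria arrays (difference 0.22, SE 0.143; limma adjusted p = 0.584). Col4a2 read 1431.6, 1427.8, 1406.3, 1677.7 and 1975.4 on the standard and 1572.3, 1797.3, 1255.8, 1843.8 and 2657.3 on the cafeteria arrays (difference 0.17, SE 0.179). Both were highest on cafeteria replicate 5, and the standard and cafeteria ranges overlapped widely. After each diet's mean was removed, their Pearson r was 0.82 over 10 arrays and 0.61 over the 8 arrays without replicate 5. Col15a1, a collagen at the outer face of basement membranes, read 1394.0, 1825.0, 1536.2, 1656.4 and 2116.3 on the standard and 1461.7, 1646.0, 1120.7, 1911.6 and 1810.6 on the cafeteria arrays. It was the only collagen member lower on the cafeteria arrays (−0.11, SE 0.156), and without cafeteria replicate 3 its difference was 0.009.

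Small leucine-rich proteoglycans, which bind collagen fibrils, had a mean log2 difference of −0.19. Ogn, which encodes osteoglycin, read 753.8, 508.7, 654.8, 347.6 and 552.7 on the standard and 521.9, 499.3, 342.1, 265.8 and 336.6 on the cafeteria arrays. The 3 highest readings came from the standard group, and standard replicates 2 and 4 lay among the cafeteria arrays. The difference was −0.50 (SE 0.226; limma adjusted p = 0.473), a 1.42-fold lower level. Dcn, which encodes decorin, read 1661.9, 1274.4, 1675.2, 1315.2 and 1336.6 on the standard and 1515.7, 1630.5, 1142.4, 1032.4 and 749.4 on the cafeteria arrays (difference −0.30, SE 0.194; limma adjusted p = 0.584). Cafeteria replicates 3, 4 and 5 lay below every standard array for Dcn, while replicates 1 and 2 lay within the standard range. Lum, which encodes lumican, differed by −0.11 (SE 0.155). Biglycan, from Bgn, went the other way: 1174.2, 1124.1, 1024.2, 1145.8 and 1720.4 on the standard and 1305.1, 1259.2, 1251.1, 1216.5 and 1689.6 on the cafeteria arrays (difference 0.13, SE 0.144). In each diet replicate 5 lay far above the other 4 arrays for Bgn. When the GAPDH ratio entered the model, the mean of the 4 proteoglycans was −0.07, with Lum at 0.11.

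Among the matrix glycoproteins 6 of 9 were higher, with a mean difference of 0.09, which became 0.26 when the GAPDH ratio entered the model. Leaving out single arrays gave 0.03 without cafeteria replicate 5 (5 of 9 higher), 0.04 without standard replicate 2 or 4 and 0.16 without standard replicate 5. Mgp encodes matrix Gla protein, an inhibitor of calcification, and read 12118.6, 11952.8, 11126.6, 12811.6 and 13523.4 on the standard and 13314.8, 13493.3, 14311.2, 13993.2 and 18509.0 on the cafeteria arrays. Only standard replicate 5 reached the cafeteria range. Its mean was 12306.6 ± 906.7 (SD, n = 5) and 14724.3 ± 2152.4 (SD, n = 5), a difference of 0.25 (SE 0.103; limma adjusted p = 0.449). Mfap5, a microfibril protein that accompanies fibrillin, read 176.2, 122.7, 205.0, 195.6 and 183.0 on the standard and 302.4, 216.8, 202.9, 187.6 and 238.0 on the cafeteria arrays (difference 0.35, SE 0.152; limma adjusted p = 0.459). Cafeteria replicate 1 was the highest and 2 of the cafeteria arrays lay within the standard range. Sparc, a collagen-binding protein that endothelial cells also make, read 3881.1, 4609.1, 4229.6, 4302.5 and 4839.9 on the standard and 4585.8, 5300.0, 3938.4, 5041.1 and 6632.7 on the cafeteria arrays (difference 0.20, SE 0.129).

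The other glycoproteins varied without a common direction. The fibulin gene Fbln2 differed by 0.21, Mfap4 by 0.10, the fibrillin gene Fbn1 by −0.14 and the fibronectin gene Fn1 by −0.24, none past the test. Postn, which encodes periostin, ranged from 40.6 to 298.9 on the standard arrays, with a highest value of 286.8 on the cafeteria arrays (difference 0.14, SE 0.461). Fbln1 averaged 57.2 ± 13.5 (SD, n = 5) on the standard and 52.8 ± 16.9 (SD, n = 5) on the cafeteria arrays, below the filter.

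Matrix enzymes and their inhibitors had a mean difference of 0.06 with no stable sign: it was −0.02 with 1 of 4 higher without standard replicate 1, 0.02 without cafeteria replicate 2, 0.10 without standard replicate 3 or 5, and −0.01 when the GAPDH ratio entered the model. Timp1, a secreted inhibitor of matrix metalloproteinases, read 264.1, 296.0, 221.3, 348.1 and 350.2 on the standard and 238.9, 341.5, 300.4, 352.3 and 466.0 on the cafeteria arrays (difference 0.18, SE 0.174). Mmp2, the gelatinase that it and related inhibitors restrain, read 123.6, 157.2, 233.8, 166.8 and 184.5 on the standard and 162.1, 284.5, 155.3, 178.1 and 152.5 on the cafeteria arrays (difference 0.09, SE 0.187), and cafeteria replicate 2 stood apart. Timp3 differed by 0.006 (SE 0.192), with a 95% confidence interval from −0.42 to 0.43. Lox, the lysyl oxidase that cross-links collagen and elastin, read 191.8, 232.4, 237.2, 189.8 and 205.6 on the standard and 219.7, 205.5, 181.7, 233.5 and 194.6 on the cafeteria arrays (difference −0.03, SE 0.095).

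The 5 contractile genes had a mean difference of −0.18. Their mean log2 value was 8.23 ± 0.24 (SD, n = 5) on the standard and 8.05 ± 0.17 (SD, n = 5) on the cafeteria arrays; standard replicate 5 was highest at 8.61 and cafeteria replicate 3 lowest at 7.77. Without standard replicate 5 the mean difference was −0.08 with 4 of 5 lower, and without cafeteria replicate 3 it was −0.11 with 3 of 5 lower. Leaving out standard replicate 2 or cafeteria replicate 4 gave −0.19 with 4 of 5 lower, and both replicate 5 arrays −0.11 with 4 of 5 lower. Acta2, smooth muscle actin and the usual marker of activated stellate cells, read 328.5, 251.2, 279.2, 255.7 and 456.7 on the standard and 174.8, 288.3, 167.2, 333.3 and 280.6 on the cafeteria arrays. Cafeteria replicates 1 and 3 were below every standard array and the others lay among them. The difference was −0.34 (SE 0.216; limma adjusted p = 0.582). Des, which encodes the muscle intermediate filament desmin, read 185.2, 186.0, 203.3, 165.7 and 232.3 on the standard and 203.2, 185.8, 186.0, 145.9 and 147.5 on the cafeteria arrays (difference −0.15, SE 0.116). Myl9, a regulatory myosin light chain, read 733.1, 650.0, 576.9, 691.4 and 780.0 on the standard and 576.6, 589.7, 489.0, 693.6 and 935.9 on the cafeteria arrays (difference −0.09, SE 0.157). Tagln, the actin-binding protein transgelin, differed by −0.03, and was 0.14 without standard replicate 5, 0.07 without cafeteria replicate 3, 0.02 without standard replicate 2 and 0.01 without cafeteria replicate 4. The calponin gene Cnn1 averaged 107.7 ± 30.5 (SD, n = 5) and 83.5 ± 12.8 (SD, n = 5), below the filter.

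Smooth muscle genes are classically switched on by serum response factor at the CArG box, a stretch rich in A and T between paired C and paired G. The Acta2 promoter is shown because Acta2 had the most negative difference of the contractile genes. RefSeq's GRCr8 promoter table matched 24 of 42 members, with a window of 250 bases before and 50 after the start. Of the 5 contractile genes only 3 were matched (Acta2, Cnn1 and Des), so Tagln and Myl9 were not searched. The strict CArG box, searched on both strands, was in 0 of those 24 members and in 1.64% of 33469 promoters. A looser form, the CArG-like box, allows a single core base other than A or T and includes the strict box; it was searched after the strict form had been seen to be missing. It was in 2 of 24 members, Acta2 and Timp3, and in 9.42% of all promoters. Acta2 holds 2 of them, in capitals, the first beginning 134 bases before the start.
Acta2 upstream sequence, GRCr8 chr1:241172504-241172753, reverse strand: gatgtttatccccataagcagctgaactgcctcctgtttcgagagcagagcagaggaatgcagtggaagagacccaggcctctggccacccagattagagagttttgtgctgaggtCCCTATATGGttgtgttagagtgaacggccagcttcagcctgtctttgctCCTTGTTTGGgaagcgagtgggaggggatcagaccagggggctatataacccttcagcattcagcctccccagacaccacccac
The TATA box letters TATAAA were in 4 of the 24 (16.7%) against 14.2% of all promoters, and the GC box in 10 (41.7%) against 33.1%. These matches are descriptions of the letters, not of binding.

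Both pericyte markers were slightly higher, with a mean difference of 0.092. Pdgfrb, the receptor through which endothelial PDGF recruits pericytes, read 321.2, 398.4, 383.5, 457.6 and 462.3 on the standard and 387.4, 448.2, 381.9, 487.6 and 483.4 on the cafeteria arrays (difference 0.11, SE 0.117; limma adjusted p = 0.737). Rgs5, a regulator of G protein signalling enriched in pericytes, read 2447.5, 2310.4, 2138.4, 2342.2 and 1923.5 on the standard and 2328.5, 2478.5, 2181.7, 2477.1 and 2236.2 on the cafeteria arrays (difference 0.07, SE 0.085, 95% confidence interval −0.12 to 0.26). Standard replicate 5 was the lowest of all 10 arrays for Rgs5.

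Of the 6 further mesenchymal genes 3 were higher and 3 lower, with a mean difference of −0.008. Thy1, in this group, had the lowest p of all 42 members. Thy1 encodes the surface glycoprotein CD90 of fibroblasts, also found on T cells and neurons, and read 210.1, 328.5, 225.4, 290.4 and 318.1 on the standard and 302.1, 345.9, 359.4, 378.0 and 483.3 on the cafeteria arrays. All but cafeteria replicate 1 lay above every standard array. Its mean was 274.5 ± 53.9 (SD, n = 5) and 373.7 ± 67.3 (SD, n = 5), a 1.35-fold higher level. On the log2 scale the difference was 0.43 (SE 0.152, 95% confidence interval 0.10 to 0.77; limma adjusted p = 0.418). Leaving out any single array kept the difference between 0.34 and 0.50. Serpinf1, which encodes the antiangiogenic factor PEDF, read 338.3, 346.5, 333.8, 417.7 and 416.0 on the standard and 378.8, 418.2, 296.5, 384.0 and 505.6 on the cafeteria arrays (difference 0.08, SE 0.132). Cxcl12, a chemokine made by stromal cells, read 1344.9, 968.9, 1103.8, 996.2 and 983.4 on the standard and 943.4, 966.9, 1222.6, 1314.5 and 1264.0 on the cafeteria arrays (difference 0.08, SE 0.128). The intermediate filament gene Vim (−0.09) and the galectin gene Lgals1 (−0.05) were close to level. Gas1 averaged 59.1 ± 25.7 (SD, n = 5) and 41.5 ± 27.9 (SD, n = 5), below the filter.

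**Figure D3:**
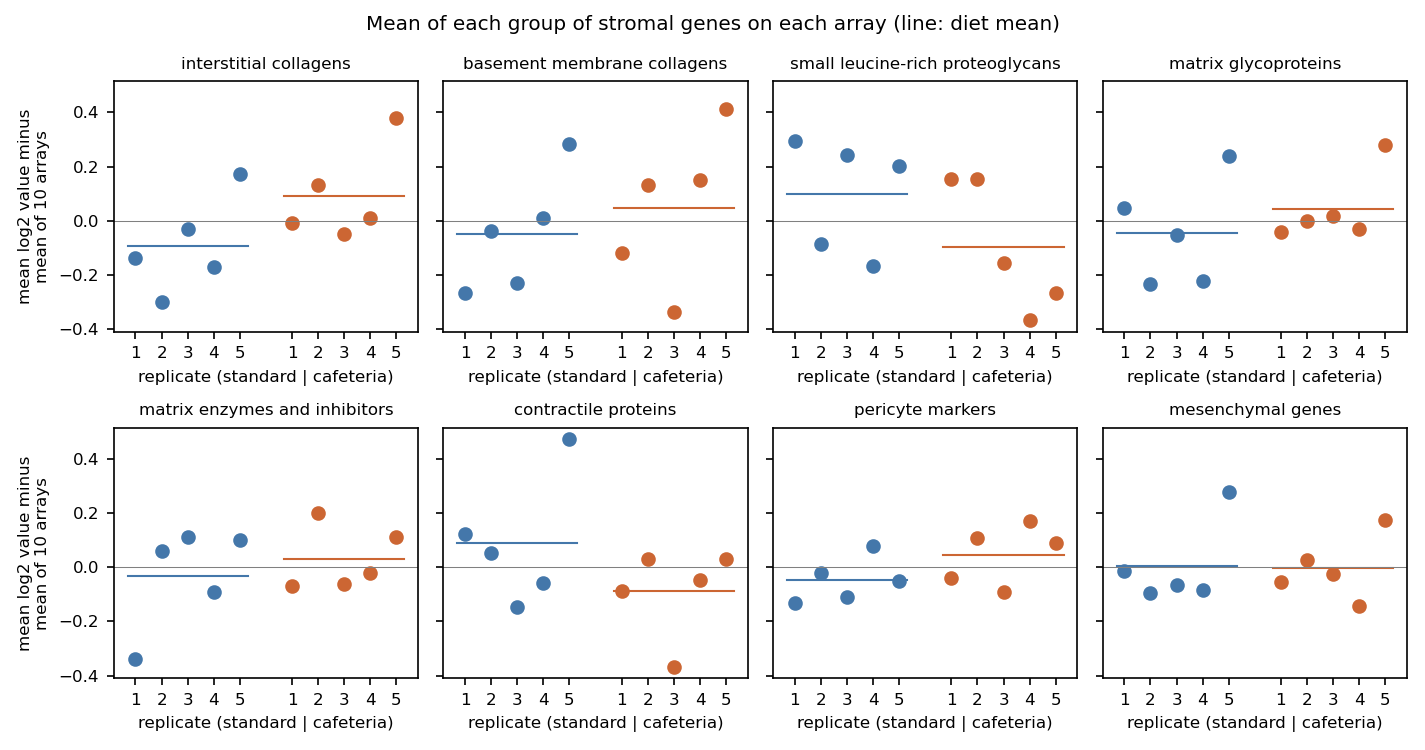
Mean log2 value of each role group on each array (vertical axis, relative to the mean of 10 arrays), replicates 1 to 5 of the standard diet in blue and of the cafeteria diet in orange, with the diet means as lines. Replicate 5 is highest in its diet for both collagen groups, while the proteoglycans of cafeteria replicates 3, 4 and 5 lie below those of the other cafeteria arrays.

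Some genes gave different answers by probeset. In all, 19 members had several probesets; 19 further probesets beside those used were tested, and 14 of them had the same direction as the probeset used. Of these 19, 1 each of Pdgfrb and Lox was above the filter on low signals (6.77) in the cafeteria mean only, and both are described without a test. For Thy1 the second probeset differed by 0.50 (SE 0.166), close to the first. For Ogn, further probesets differed by −0.50, −0.41 and 0.06. The dimmest Pdgfrb probeset averaged 65.5 ± 27.4 (SD, n = 5) on the standard and 148.2 ± 21.0 (SD, n = 5) on the cafeteria arrays, with no overlap between a highest standard reading of 105.5 and a lowest cafeteria reading of 124.2. Its mean log2 values were 6.25 and 7.33, a difference of 1.09, against 0.11 for the brightest Pdgfrb probeset and 0.06 for the third. A dimmer Lox probeset averaged 93.9 ± 19.7 (SD, n = 5) and 157.4 ± 42.9 (SD, n = 5), also without overlap, with mean log2 values of 6.73 and 7.39 where the brightest probeset differed by −0.03. Of all tested probesets, 0.988% lay wholly higher on the cafeteria arrays. Cxcl12 had a second probeset at −0.71 (SE 0.401), and that of Col1a1 was at −0.10 (SE 0.155). These probesets were picked out after their values were seen, and which part of each transcript they read was not analysed here.

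**Figure D4:**
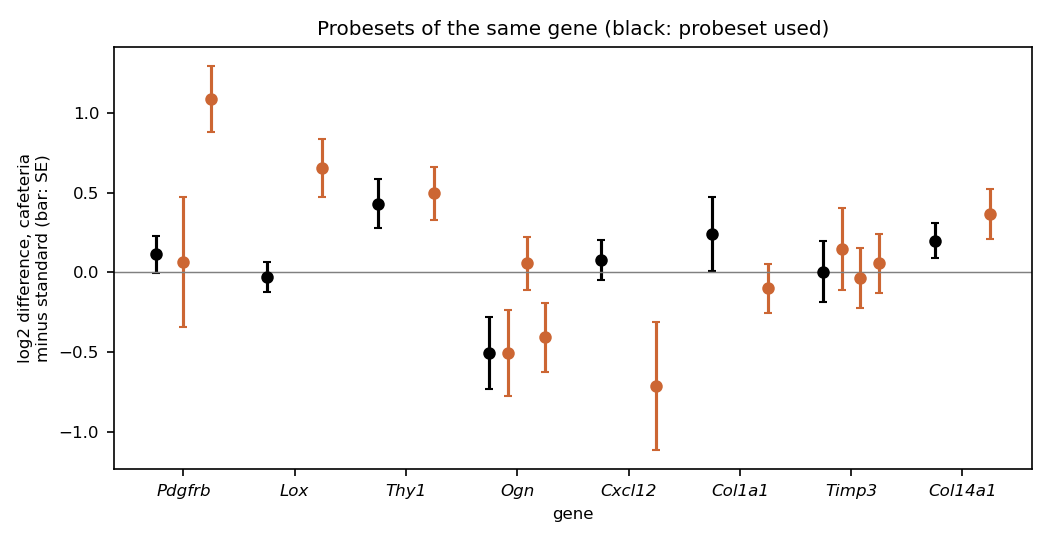
Log2 difference between the diets (vertical axis, cafeteria minus standard, bars 1 SE) for every tested probeset of 8 stromal genes (horizontal axis), black for the brightest and orange for the others. Probesets of Thy1 lie together, while those of Pdgfrb, Lox and Cxcl12 lie far apart; the highest Pdgfrb and Lox points are the probesets above the filter in the cafeteria mean only.

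Across arrays, many stromal genes varied together, less so without the replicate 5 arrays. With each diet's mean removed, the median Pearson r over the 741 pairs of tested members was 0.22 over 10 arrays, with 67.2% of pairs above 0, against 0.00 and 50.1% over all pairs of genes tested. Without both replicate 5 arrays, chosen after seeing the data, the median over 8 arrays was 0.07 with 56.1% above 0. These coefficients describe 10 samples whose members share the same RNA, array and dissection.

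The highest coefficients of the 741 pairs lay across the role groups. Mgp and Lgals1 had r = 0.955, and Col4a2 and Serpinf1 r = 0.952. Both pairs were picked by rank and were not computed without replicate 5. The other pairs named here were chosen by gene, not by rank. Col1a2 and Col3a1 had r = 0.95, Col1a1 and Col3a1 r = 0.84, and without replicate 5 these were 0.82 and 0.68. Dcn, Lum and Ogn also varied together: r was 0.80 for Dcn with Lum and 0.71 for Dcn with Ogn, and 0.89 for both pairs without replicate 5. Between these sets of genes, Col3a1 with Dcn gave −0.31 over 10 arrays and 0.47 without replicate 5. Against the endothelial markers, the basement membrane collagens had a median r of 0.67 over 30 pairs, all above 0. That median was 0.42 for contractile genes, 0.39 for interstitial collagens, 0.10 for pericyte markers and −0.12 for the proteoglycans. These medians were over 10 arrays and were not computed without replicate 5. Col4a2 and Sparc had r = 0.92. Pdgfrb and Rgs5, both read as pericyte markers, had r = −0.24, and 0.24 without replicate 5.

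**Figure D5:**
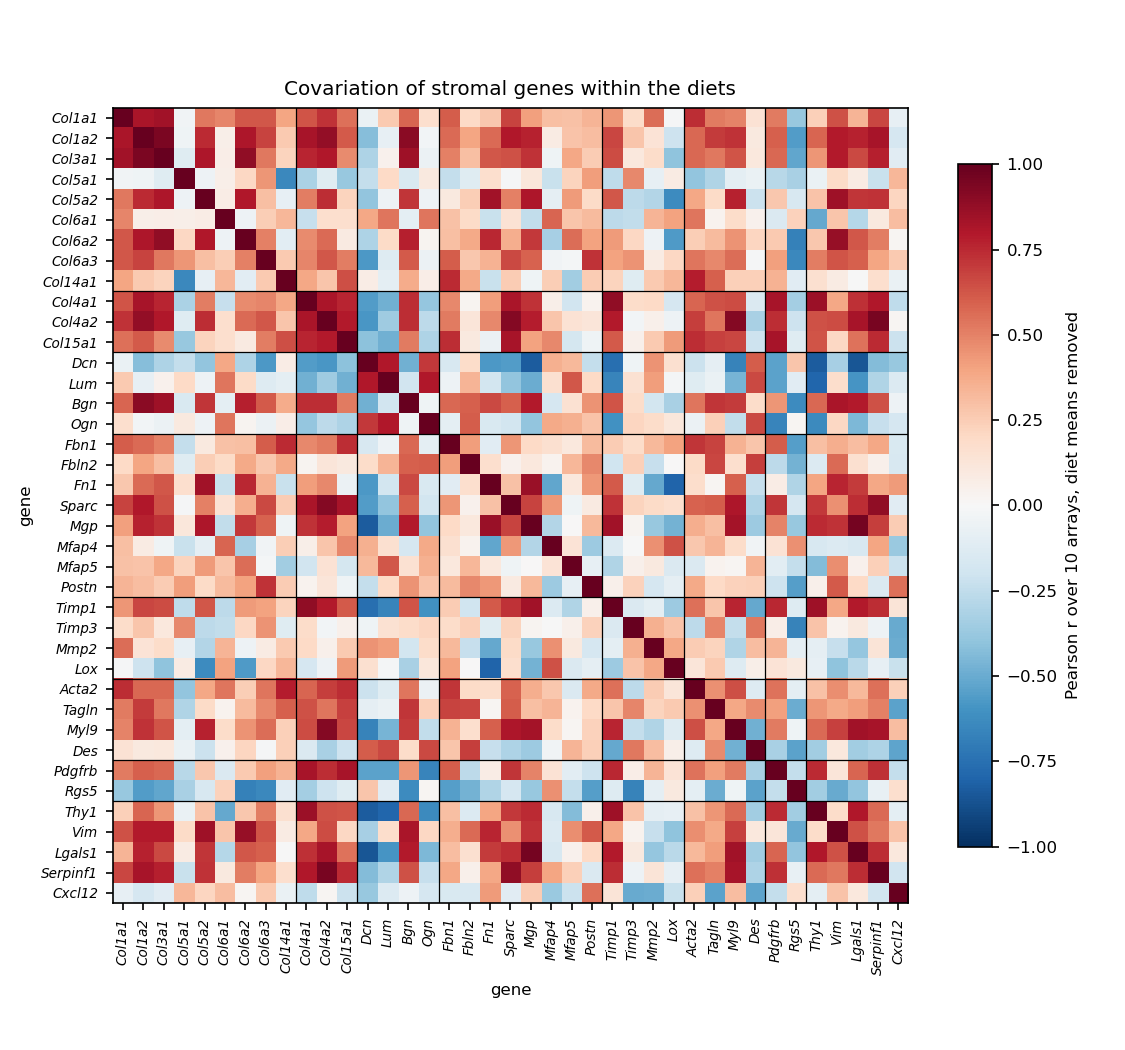
Pearson r between the 39 tested members over 10 arrays after each diet's mean was removed (colour scale from −1 to 1), with lines between the role groups. Type I, III and IV collagens, Bgn and Sparc share high values, Dcn, Lum and Ogn form a separate block, and Rgs5 and Cxcl12 stand apart from both.

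Neighbouring genes did not always vary together. RefSeq's GRCr8 gene table held all 42 members and placed 4 pairs side by side with no protein-coding gene between. Within diets, Col4a1 and Col4a2 had r = 0.82, Col3a1 and Col5a2 r = 0.81, and Dcn and Lum r = 0.80. Col6a1 and Col6a2, whose chains assemble into the same protein, had r = −0.05, and −0.05 without replicate 5.

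Genes that act with the stroma were read from 5 lists, and 0 of their tested members passed limma's adjusted threshold. Of 15 tested collagen synthesis genes 11 were higher and 4 lower (median 0.09), with 1 higher at an unadjusted p under 0.05 where 5.51% of all probesets were. That gene was P3h1, a prolyl 3-hydroxylase of collagen (0.45, SE 0.119; limma adjusted p = 0.398); next were P4hb, a subunit of prolyl 4-hydroxylase and a general disulphide isomerase (0.19), and Bmp1, which trims procollagen (0.24). Of 10 laminin and basement membrane genes 8 were higher (median 0.08), led by the laminin chain gene Lama5 (0.51, SE 0.164; limma adjusted p = 0.412) and followed by Col18a1 (0.39) and the nidogen gene Nid1 (0.14). Over all tested probesets 51.4% were higher and 48.6% lower.

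TGF-beta and PDGF genes and other contractile genes leaned less clearly. Of 15 tested TGF-beta and PDGF genes 6 were higher and 9 lower (median −0.11); 2 were lower at an unadjusted p under 0.05, as were 4.91% of all probesets. They were the ligand gene Tgfb3 (−0.39, SE 0.092; limma adjusted p = 0.398) and the receptor gene Tgfbr1 (−0.24, SE 0.094), and the inhibitory Smad7 differed by −0.19. Of 15 other contractile and mural cell genes 7 were higher and 8 lower (median −0.07). The tropomyosin gene Tpm1 (−0.25, SE 0.077, limma adjusted p = 0.407) and the smooth muscle myosin gene Myh11 (−0.25, SE 0.111) were lower. Notch3, a receptor of mural cells, was higher (0.41, SE 0.171, limma adjusted p = 0.451). Each had an unadjusted limma p under 0.05, as did 4.91% of all probesets on the lower side and 5.51% on the higher. With the mean of all probesets of the gene, Tpm1 and Myh11 turned to 0.08 and 0.07. The stellate list had only Plin2 (−0.22) and Nes (0.26) to test.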

How the data were processed

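Per the labels, biotinylated cRNA was hybridised to 10 single-colour Affymetrix arrays, 5 for each diet. The deposited values are linear intensity values; the submitters' processing notes name MAS5, and the other steps are not given in the sources used here. MAS5 summarises matched and mismatched probes and scales each array: the mean after trimming 2% at each end was 500.1 to 500.2 on all arrays, and detection calls were not used here. Median signals were 150.8 to 173.2; the number of arrays limits the precision. Of 31042 non-control probesets, 18625 whose mean over the arrays exceeded the 40th percentile were tested as log2(value + 14.15), the 10th percentile of all values, so differences of dim genes are understated. The test was limma 3.58.1 (lmFit, eBayes, R 4.3.3), Benjamini-Hochberg over all probesets, checked on simulated data. The simulated shifts were larger than the difference of any member, so that check does not cover differences of this size. Figures used matplotlib 3.10.9. Values in every array are given for Col1a1, Col3a1, Dcn, Pdgfrb, Rgs5, Acta2 and up to 3 members of each role with the lowest p; of each list, up to 3 genes with the lowest p are named, and other members by their difference. Means over a role and correlations are descriptions. Members and lists were chosen with earlier results of these data known. Alternatives covered pseudocount, filter, normalization, variance model, array weights, replicate block, GAPDH ratio, choice of probeset and each array left out. The labels name no animal shared by same-numbered arrays, so the numbers were not taken as pairs in the main fit. Deviations of same-numbered arrays of the diets had r from −0.00174 to 0.296, which does not settle whether they shared a batch. Protein sequences were not used here.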

Additional observations from a re-analysis of the deposited data

Results flagged for a closer look

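Of 102 sets of 5 arrays (42 members and 9 group means in each diet), in 12 the gap between 1 array and the rest exceeded Dixon's 95% limit, which marks about 1 set in 20 by chance (5.1 here). The sets share the same arrays and the group means are built from the members, so the sets are not independent. All values are log2. Cafeteria replicate 5 was highest for Col5a2 at 10.03 (others 9.51 to 9.64), Bgn at 10.73 (others 10.27 to 10.37), Mgp at 14.18 (others 13.70 to 13.81), Vim at 10.94 (others 10.26 to 10.44), Lgals1 at 9.45 (others 8.44 to 8.71) and the matrix glycoprotein mean at 9.29 (others 8.97 to 9.03). Standard replicate 5 was highest for Col1a2 at 10.27 (others 9.61 to 9.77), Bgn at 10.76 (others 10.02 to 10.21), the mean of all members at 9.45 (others 9.10 to 9.19) and the mesenchymal mean at 8.99 (others 8.62 to 8.70). Timp3 was lowest in cafeteria replicate 4 at 10.78 (others 11.23 to 11.36), and Mmp2 was highest in cafeteria replicate 2 at 8.22 (others 7.38 to 7.59).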

How the results depend on the processing

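Of 22 planned settings and 1 added after seeing the data (both replicate 5 arrays left out), none gave a member an adjusted p under 0.05 (lowest 0.303). The count of probesets past the threshold, 0, ran from 0 to 1 when single arrays were left out (1 without standard replicate 2). The count of members higher at an unadjusted p under 0.05, 3, was 1 with the filter at the 70th percentile (6.51% of all probesets higher there, against 5.51%), 5 with the replicate number as a block (replicate block; 7.16%), 6 with averaged probesets (6.7% of genes) and 1 to 6 without single arrays. The count lower, 1, was 0 with no filter, array weights, the GAPDH ratio as a covariate, averaged probesets or both replicate 5 arrays left out, and 0 to 2 without single arrays. The block changed no other call. With the GAPDH ratio the mean difference was 0.369 for interstitial collagens and 0.257 for matrix glycoproteins; with averaged probesets it was 0.246 for pericyte markers and 0.119, down from 0.184, for interstitial collagens. The averaged pericyte value takes in the dim Pdgfrb probeset at 1.085, which was above the filter in the cafeteria mean only. The other Pdgfrb probesets were at 0.114 and 0.064, and Rgs5, with 1 probeset, was at 0.071. The GAPDH ratio itself differed between the diets, and the cause of the shifts with it was not tested.

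Several genes turned, Fn1 (−0.241), Smad7 (−0.193), Tpm1 (−0.247) and Myh11 (−0.246) among them. With the GAPDH ratio these were Lum (0.110), Fn1 (0.266), Timp3 (−0.133), Myl9 (0.112), Vim (0.289), Lgals1 (0.096) and the pathway gene Smad7 (0.042). With array weights they were Col5a2 (−0.003), Lox (0.007) and Tagln (0.020), with median centring Timp3 (−0.032), and without both replicate 5 arrays Col5a2 (−0.001) and Tagln (0.095). With averaged probesets they were Mmp2 (−0.079), Lox (0.313), Cxcl12 (−0.245), Smad7 (0.017), Tpm1 (0.075) and Myh11 (0.070), and without probesets open to cross-hybridisation Tpm1 (0.179). The averaged Lox value takes in the dim probeset at 0.654, which was above the filter in the cafeteria mean only. Leaving out single arrays gave −0.040 to 0.090 for Col5a2, −0.182 to 0.009 for Col15a1, −0.263 to 0.366 for Postn, −0.133 to 0.115 for Timp3, −0.064 to 0.196 for Mmp2, −0.070 to 0.015 for Lox, −0.110 to 0.136 for Tagln, −0.223 to 0.006 for Myl9, −0.209 to 0.002 for Vim, −0.221 to 0.033 for Lgals1 and −0.008 to 0.178 for Serpinf1. Dim probesets limit Fbln1, Cnn1 and Gas1.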
